A study of Mus musculus with 23 samples.

Results

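Myc and 35 genes whose products build ribosomes in the nucleolus were followed in T cells specific for ovalbumin (OVA). The members were taken by gene symbol from the deposited table of protein-coding genes: 36 of 21900 genes, all of them found, with at least 668 estimated counts in every library. OT-I cells (CD8) and OT-II cells (CD4) each carry a transgenic receptor for an OVA peptide, and both were transferred into wild-type C57BL/6 mice. On day 1 the mice were injected with A8B1-OVA (1 ug), with free OVA at the molar equivalent of that dose, with more free OVA (called here higher-dose OVA), or with saline. The titles mark the free OVA doses with the numbers 0.5 and 5 and no unit, and the labels do not say what A8B1 is; the series title speaks of targeting erythrocytes and of anergy, a state in which T cells respond poorly to antigen. On day 5 the transferred cells were sorted by flow cytometry from spleen and lymph nodes. All 8 groups therefore hold transferred transgenic cells in mice of 1 strain, and saline marks transfer without OVA. Each library pooled RNA of 3 mice, with 3 libraries a group and 2 for OT-II after higher-dose OVA, so p-values measure the spread between these pools.

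The 23 libraries held 26.6 to 73.5 M estimated counts. Summed Cd8a and Cd8b1 stood at 2378 to 4133 CPM (the read count normalised to library size after TMM scaling) in the OT-I libraries and at 24.8 to 59.8 CPM in the OT-II libraries. Summed Cd4 and Zbtb7b, which mark CD4 cells, stood at 621 to 782 CPM in OT-II and at 2.02 to 18.5 CPM in 11 of 12 OT-I libraries. OT-I higher-dose OVA replicate 1 held 198 CPM of them. The OT-II samples have a cell type label that reads OT-i, while their titles give OT2. The summed B cell markers (10 genes) reached 592 CPM in replicate 2 of OT-I molar-equivalent OVA and 212 CPM in OT-II molar-equivalent OVA replicate 3, and 38.97 to 164 CPM elsewhere. The summed myeloid markers (11 genes) reached 901 CPM in OT-I molar-equivalent OVA replicate 2, 579.95 in OT-II saline replicate 1 and 362 in OT-I saline replicate 1, and 36.8 to 168 CPM elsewhere. The summed erythroid markers (7 genes) reached 1112 CPM in OT-II saline replicate 1, 689.97 in OT-II saline replicate 3 and 628 in replicate 2 of OT-I molar-equivalent OVA, and 61.1 to 424 CPM elsewhere. Counts of called members are given below without the 4 libraries with raised B cell or myeloid markers and the OT-I library with raised CD4 markers, called the libraries with raised markers, where these counts change, and the part of other cells in the results was not tested otherwise.

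Ribosomes begin in the nucleolus, where RNA polymerase I copies the ribosomal RNA genes. Small nucleolar RNPs (snoRNPs) of the box C/D and box H/ACA kinds modify the precursor RNA, and assembly factors, GTPases and helicases fold and trim it into the small and large subunits. Myc is a transcription factor that pairs with Max and drives many of these genes, and T cells raise it when antigen activates them; Mxd proteins and Mxi1 pair with Max in its place and oppose Myc.

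Myc with Max binds the E-box, of which CACGTG is the standard form, so the promoter windows of the members that hold these 6 letters are shown. RefSeq promoter windows (GRCm38.p6, 250 bases before to 50 bases after the start of the gene) were matched by symbol for 29 of the 36 members, and CACGTG, which reads the same on both strands, was present for 5 of the 29 (17.2%), against 10.8% of 11841 tested genes with a window. For Nop2 the letters lay before the start. The 250 bases before the Nop2 start, at chr6:125131633-125131882 on the plus strand, and 30-base stretches around the letters of the other 4 members follow, 5′ to 3′ on the strand of the gene, with CACGTG in capitals.
Nop2: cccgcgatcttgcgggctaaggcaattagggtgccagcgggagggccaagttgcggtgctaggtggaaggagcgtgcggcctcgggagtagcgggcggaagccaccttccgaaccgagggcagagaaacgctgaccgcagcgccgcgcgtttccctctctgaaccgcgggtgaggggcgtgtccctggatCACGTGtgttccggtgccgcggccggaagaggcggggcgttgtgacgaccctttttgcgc
Mybbp1a: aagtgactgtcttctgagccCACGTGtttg
Wdr43: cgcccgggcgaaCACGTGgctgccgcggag
Pes1: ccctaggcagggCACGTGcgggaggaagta
Nle1: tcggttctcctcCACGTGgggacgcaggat
The Mybbp1a stretch lies at chr11:72441347-72441376 (plus strand), that of Wdr43 at chr17:71616220-71616249 (plus), that of Pes1 at chr11:3963965-3963994 (plus) and that of Nle1 at chr11:82908355-82908384 (minus). In all 4 the letters CACGTG lie after the annotated start, though the Pes1 stretch begins before it. Within the 250 bases before the start alone, 3.45% of the matched members and 9.02% of tested genes held the letters. A match of letters is a description and says nothing of binding in these cells, and Myc, Fbl, Tcof1, Npm1, Rrp12, Rrs1 and Bop1 were not matched to a window.

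After saline, most members stood at a higher CPM in OT-I than in OT-II libraries. The 2 cell types differ in lineage and in transgenic receptor at once, so the parts of these cannot be told apart. With edgeR's quasi-likelihood test and Benjamini-Hochberg adjustment over all tested genes, called here at an adjusted p under 0.05, 23 of 36 members were higher in OT-I and 0 were lower. Of all 15235 genes tested jointly, 8.36% were called higher and 7.11% lower. The largest differences were those of Myc (2.51-fold), Nhp2 (2.11-fold) and Rrp12 (2.04-fold), and the smallest called ones those of Bop1 (1.28-fold) and Nolc1 (1.32-fold). The log2 fold changes were positive for 34 members, with a median of 0.57 against -0.02 over all genes, and for 32 members every OT-I saline library lay above every OT-II saline library, against 18.2% of all genes. Of the 23, 19 were called in each of 13 alternative fits; Fbl, Polr1b, Bop1 and Noc3l were not, and no single library moved the count outside 21 to 24. Without the libraries with raised markers 21 members were called (1583 of all genes, from 2356 with all libraries). Fbl lost its call without OT-I saline replicate 1 or 2 or OT-II saline replicate 2 or 3 (adjusted p up to 0.125), Bop1 without OT-I saline replicate 3 (0.0723) or OT-II saline replicate 2 (0.0599), and Noc3l without OT-II saline replicate 1 (0.0618).

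In OT-II cells, A8B1-OVA was followed by higher levels of some nucleolar phosphoproteins, box H/ACA proteins and large-subunit factors. Against saline, 6 members were higher (Ncl, Nhp2, Nop2, Nop16, Dkc1 and Npm1, 1.38-fold to 1.76-fold) and 0 lower, where 4.40% of 14757 genes were called higher and 2.88% lower. The members' median log2 fold change was 0.26 (all genes -0.01), and 15 members had every A8B1-OVA library above every saline library (all genes 11.6%). Ncl and Nhp2 were called in each of 13 alternative fits. Without saline replicate 3 these 2 were the only members called, and without the libraries with raised markers 4 were. Calls over all genes were 578 and 729 in these fits, from 1074 with all libraries. Markers of other cells went the other way in this comparison: the log2 fold changes were negative for 7 of 7 erythroid markers (0 called), 11 of 11 myeloid markers (2 called) and 10 of 10 B cell markers (0 called). Summed erythroid markers stood at 1112, 192 and 689.97 CPM after saline and 373, 281 and 172 CPM after A8B1-OVA, and summed myeloid markers at 579.95, 81.4 and 99.6 and 46.9, 89.1 and 41.6 CPM; their part in the members' values was not tested otherwise.

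Against molar-equivalent OVA in OT-II cells, 9 members were higher with A8B1-OVA and 0 lower, where 3.94% and 2.43% of all genes were. Myc, Gar1, Rrp12 and Ppan were called here beside Ncl, Nhp2, Nop2, Nop16 and Npm1, and Dkc1 was not. Against higher-dose OVA, 5 members were higher (Ncl, Nhp2, Nop16, Gar1 and Myc) and 0 lower, where 0.820% and 0.522% of all genes were. These comparisons share the A8B1-OVA libraries. The count against molar-equivalent OVA became 3 without A8B1-OVA replicate 2, and 3, 4 and 4 without molar-equivalent OVA replicates 1, 2 and 3; the count against higher-dose OVA became 2 and 1 without A8B1-OVA replicates 1 and 2, and 0 and 1 without higher-dose OVA replicates 2 and 3. Without the libraries with raised markers, 5 and 3 members were called (674 and 122 of all genes, from 939 and 198 with all libraries).

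Free OVA alone moved no member past the test in OT-II cells. For higher-dose OVA against saline, molar-equivalent OVA against saline and higher-dose against molar-equivalent OVA, edgeR and DESeq2 each called 0 members, edgeR with 0, 1 and 2 at an unadjusted p under 0.05. Of all genes, 0.0271%, 0% and 0% were called in these comparisons.

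In OT-I cells, Gnl3 fell with A8B1-OVA and no member rose past the test against saline. There 0 members were called higher and 1 lower, where 7.07% of 14080 genes were called higher and 4.43% lower. The median log2 fold change was 0.09 (all genes -0.02), with 22 members positive and 14 negative. For 6 members every A8B1-OVA library lay above every saline library, and for 4 below (all genes 16.9% and 15.5%). Against molar-equivalent OVA, Ncl was higher and Gnl3 lower, where 6.56% and 4.06% of all genes were. Without A8B1-OVA replicate 3, 7 members were called against saline and 7 against molar-equivalent OVA. Against saline, Fbl, Nhp2, Polr1c, Ncl, Npm1 and Nolc1 were then higher and Gnl3 lower. Calls over all genes rose too in this fit, from 1620 to 2569 against saline and from 1496 to 2181 against molar-equivalent OVA. Without saline replicate 3, 0 were called against saline (721 of all genes). The count against molar-equivalent OVA became 0 without A8B1-OVA replicate 2 (575 of all genes). It became 1 and 4 without molar-equivalent OVA replicates 1 and 2 (973 and 1654 of all genes). With the size factors of DESeq2 in place of TMM, Ncl was called higher against saline beside the lower Gnl3, and with plain library totals Gnl3 alone was called, as lower, against molar-equivalent OVA.

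Higher-dose OVA in OT-I cells was followed by lower values across the list, few of them past the test. Against saline the log2 fold change was negative for 36 of 36 members, with a median of -0.34 (all genes 0.00) and a range from -0.57 for Gnl3 to -0.05 for Tcof1. For 31 members every higher-dose library lay below every saline library (all genes 10.9%). Gnl3 alone was called, as lower, where 1.97% of all genes were called higher and 0.440% lower. At an unadjusted p under 0.05 there were 20 members, all of them lower. No share of all genes at that unadjusted cut was taken, here or for the other lists, so such counts have no background. A fit of these 2 groups alone called 10 members, and calls over all genes rose from 339 to 583. Leaving out any library but higher-dose replicate 1 left 0 members, with 73 to 163 of all genes called. Without the libraries with raised markers 0 members were called (128 of all genes). The fold changes were negative for 35 or 36 members in each of these fits. Against molar-equivalent OVA 34 members were negative, with 16 wholly below (all genes 7.36%), and Gnl3 was again called alone (all genes 0.838% higher, 0.199% lower). Over the 36 members, log2 fold change and transcript length had a Spearman correlation of 0.54 against molar-equivalent OVA and 0.18 against saline. The part of transcript length was not tested. The Gnl3 call against molar-equivalent OVA was lost without molar-equivalent OVA replicate 1 (adjusted p = 0.112) or 3 (0.0622) and without higher-dose replicate 2 (0.169) or 3 (0.137).

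Set directly against the OT-I higher-dose libraries, those with A8B1-OVA had 6 members higher and 0 lower, where 1.63% and 0.774% of all genes were. They were Npm1 (1.94-fold), Mybbp1a (1.74-fold), Fbl (1.70-fold), Ncl (1.65-fold), Nolc1 (1.58-fold) and Ppan (1.42-fold). All 36 members had a positive log2 fold change, with a median of 0.39 (all genes -0.02), and 26 had every A8B1-OVA library above every higher-dose library (all genes 11.9%). The count of called members ranged from 0 to 13 as single libraries were left out, with 2, 0 and 13 without A8B1-OVA replicates 1, 2 and 3 and 1, 3 and 0 without higher-dose replicates 1, 2 and 3. It was 0 without the libraries with raised markers (62 of all genes). Calls over all genes moved too, from 339 with all libraries to 38 without A8B1-OVA replicate 2 and 1487 without replicate 3. Molar-equivalent OVA against saline gave 0 called members in OT-I by edgeR and by DESeq2, 0 at an unadjusted p under 0.05, where 0% of all genes were called.

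**Figure D1:**
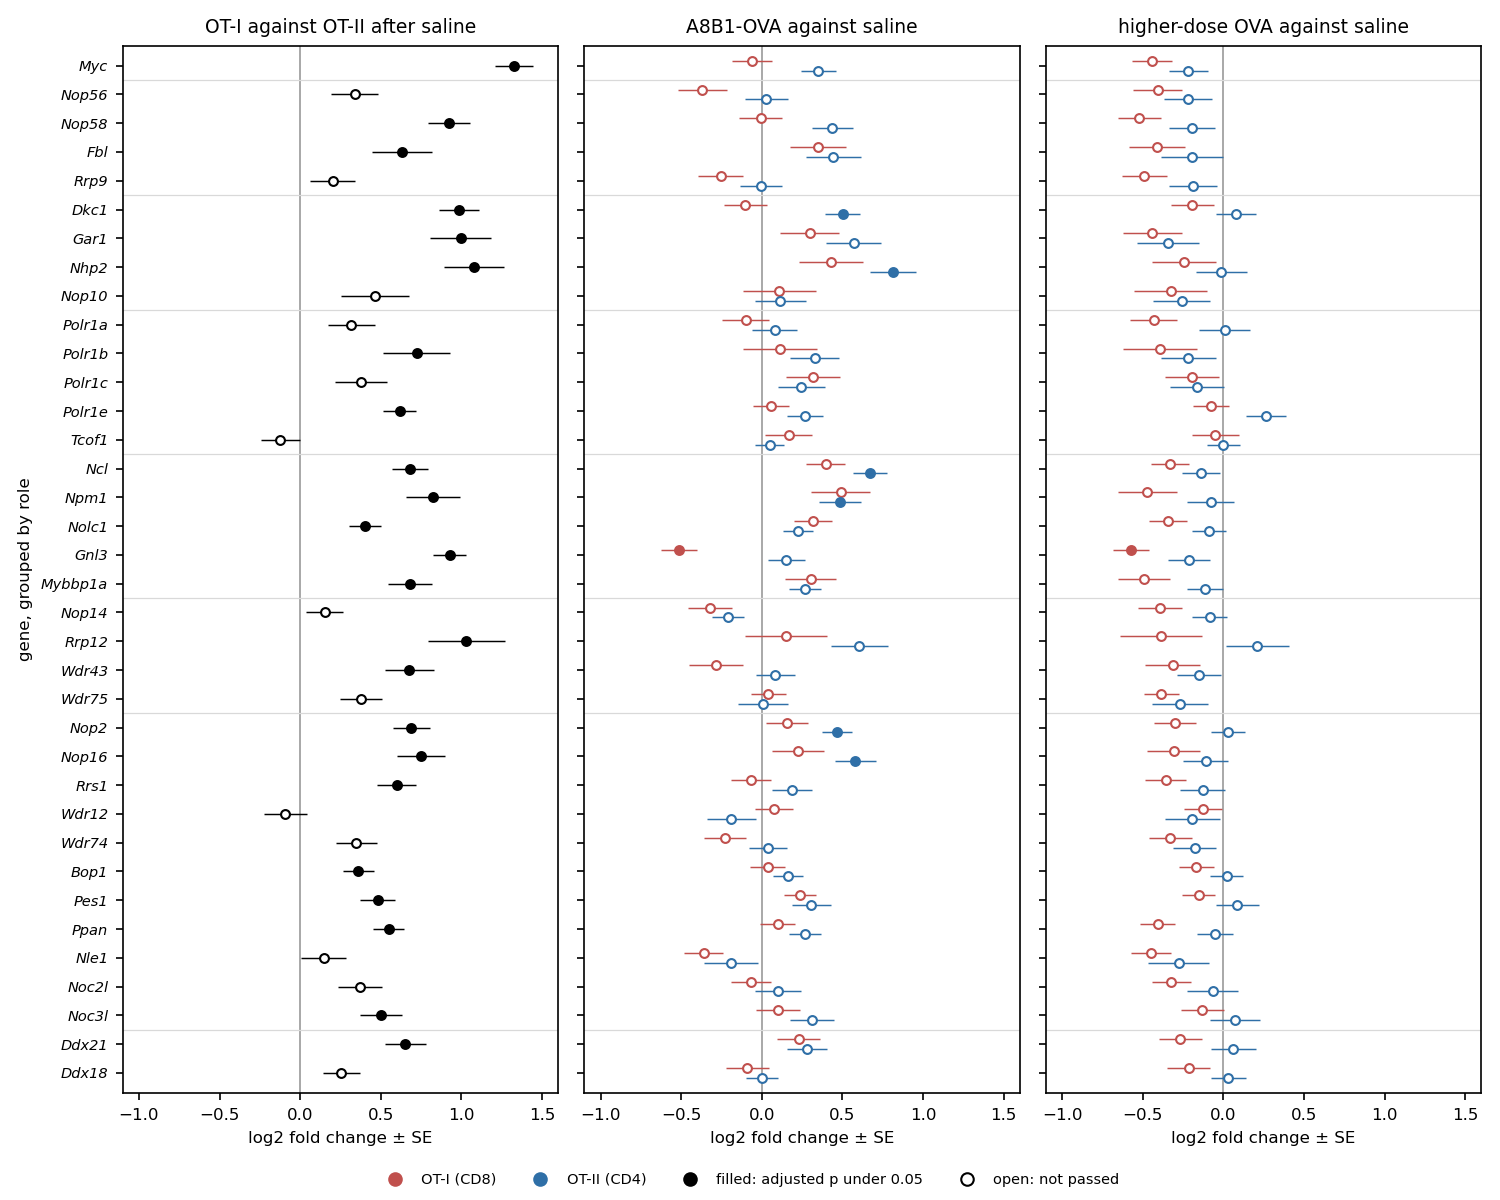
Log2 fold change ± SE of each of the 36 genes, grouped by role, for OT-I against OT-II after saline (left, black), A8B1-OVA against saline (middle) and higher-dose OVA against saline (right), with OT-I in red and OT-II in blue; filled points passed an adjusted p under 0.05. In the left panel 34 of 36 points lie above 0, and in the right panel all 36 OT-I points lie below 0.

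Whether the 2 cell types responded differently was tested as the difference of their responses. For A8B1-OVA against saline, 0 members were called in this difference by edgeR (4 at an unadjusted p under 0.05) and 2 by DESeq2, where edgeR called 0.433% of all genes; the median difference was -0.17, OT-I below OT-II. Gnl3 had the difference -0.64 ± 0.15 (log2, SE; edgeR adjusted p = 0.0577), which DESeq2 called (adjusted p = 9.85e-04) together with Dkc1 (adjusted p = 0.0436). For higher-dose OVA against saline, edgeR and DESeq2 each called 0 members (5 at an unadjusted p under 0.05 by edgeR, all lower), where edgeR called 0.00656% of all genes. The median difference was -0.25 (all genes -0.01), OT-I below OT-II, with 35 members negative and 1 positive.

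Myc (chr15:61985391-61990374 on GRCm38, plus strand) stood apart between the cell types. Its levels after saline were 277, 307 and 302 CPM in OT-I and 120.3, 112 and 121 CPM in OT-II, a log2 difference of 1.33 ± 0.12 (SE; adjusted p = 7.45e-08). After A8B1-OVA they were 292, 269 and 295 CPM in OT-I and 133, 169 and 144 CPM in OT-II. Every OT-I library, whatever the treatment, lay above every OT-II library, as also for Dkc1 and Polr1e (3 of 36 members; all genes 2.95%).

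After molar-equivalent OVA, Myc stood at 296, 249 and 269.98 CPM in OT-I and 121, 98.99 and 109 CPM in OT-II. After higher-dose OVA it stood at 197, 196 and 250.3 CPM in OT-I and 98.01 and 105 CPM in OT-II. In OT-II the 3 A8B1-OVA libraries were above the other 8, and in OT-I the higher-dose libraries were below the saline ones while replicate 3 of them lay just above the lowest molar-equivalent library. Against saline, A8B1-OVA gave log2 fold changes of -0.06 ± 0.12 in OT-I (adjusted p = 0.801) and 0.35 ± 0.11 in OT-II (adjusted p = 0.0759, edgeR; 0.0228 by DESeq2). In OT-II, Myc was called against molar-equivalent OVA (0.45 ± 0.11, adjusted p = 0.0296) and against higher-dose OVA (0.57 ± 0.12, adjusted p = 0.0474). The second call was lost in each of 5 fits that left out a library (adjusted p up to 0.364), and the first without A8B1-OVA replicate 2 (0.095) or molar-equivalent OVA replicate 2 (0.105) or 3 (0.0841). Higher-dose OVA against saline gave -0.44 ± 0.12 in OT-I (adjusted p = 0.0938 by edgeR and 0.00867 by DESeq2) and -0.22 ± 0.12 in OT-II (adjusted p = 0.902).

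Of 11 tested genes of the Myc network, the Myc antagonists Mxd3 and Mxd4 rose in OT-I cells with A8B1-OVA. Mxd4 stood at 48.7, 44.9 and 40.4 CPM after saline and 150.1, 133 and 102 CPM after A8B1-OVA in OT-I, and at 65.4, 52.8 and 47.9 CPM (saline) and 115, 144 and 92.9 CPM (A8B1-OVA) in OT-II. In both cell types every A8B1-OVA library lay above every saline library, with log2 fold changes of 1.51 ± 0.16 in OT-I (adjusted p = 1.32e-04) and 1.10 ± 0.18 in OT-II (adjusted p = 0.00384), both called in each of 13 alternative fits. Mxd3 stood at 1.49, 1.72 and 1.62 CPM after saline and 24.04, 39.2 and 6.83 CPM after A8B1-OVA in OT-I, and at 1.004, 0.490 and 0.278 CPM (saline) and 3.43, 8.16 and 0.764 CPM (A8B1-OVA) in OT-II. The A8B1-OVA libraries of OT-I differed widely among themselves and all lay above saline, and in OT-II replicate 3 lay inside the saline range. The log2 fold changes of Mxd3 were 3.84 ± 0.54 in OT-I (adjusted p = 7.24e-04) and 2.81 ± 0.91 in OT-II (adjusted p = 0.0865, not passed).

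Mxd4 also stood at 69.4, 70.9 and 73.5 CPM in OT-I and 86.99 and 91.1 CPM in OT-II after higher-dose OVA, above all saline libraries of the same cell type. The difference from saline was called in OT-I (0.69 ± 0.16, adjusted p = 0.0385, lost without any 1 of the 6 libraries, adjusted p up to 0.192) and not in OT-II (0.69 ± 0.20, adjusted p = 0.544). With A8B1-OVA, Mxd3 and Mxd4 were also called higher than with molar-equivalent OVA in OT-I (3.36 and 1.49) and than with higher-dose OVA (2.39 and 0.82), the latter calls lost without A8B1-OVA replicate 1 or 2 or any 1 higher-dose library (adjusted p up to 0.195 for Mxd3 and 0.113 for Mxd4). Mxd1, a further Max partner that opposes Myc, was lower with A8B1-OVA than with saline in OT-I (-0.53 ± 0.15, adjusted p = 0.0408); the call was lost without A8B1-OVA replicate 2 or 3 or any saline library (adjusted p up to 0.192). Max itself had 0.67 ± 0.44 in OT-I (adjusted p = 0.365) and 0.00 ± 0.23 in OT-II (adjusted p = 0.999) for A8B1-OVA against saline, neither passed. Mxi1 was lower in OT-I than in OT-II after saline (-1.22 ± 0.14, adjusted p = 3.58e-06). The differences between cell types in the A8B1-OVA response of Mxd3 and Mxd4 were not past the test (adjusted p = 0.838 and 0.67). The proliferation gene Mki67 stood at 70.9 to 153 CPM in OT-I after A8B1-OVA, 3.72 to 9.58 after saline, 6.62 to 12.4 after molar-equivalent OVA and 28.03 to 61.2 after higher-dose OVA. In OT-II it stood at 4.46 to 20.6 CPM after A8B1-OVA and 0.588 to 5.31 after saline. After molar-equivalent OVA it stood at 0.905 to 4.08 CPM there, and after higher-dose OVA at 8.35 and 14.2 CPM. The part of Mki67 in these results was not tested.

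**Figure D2:**
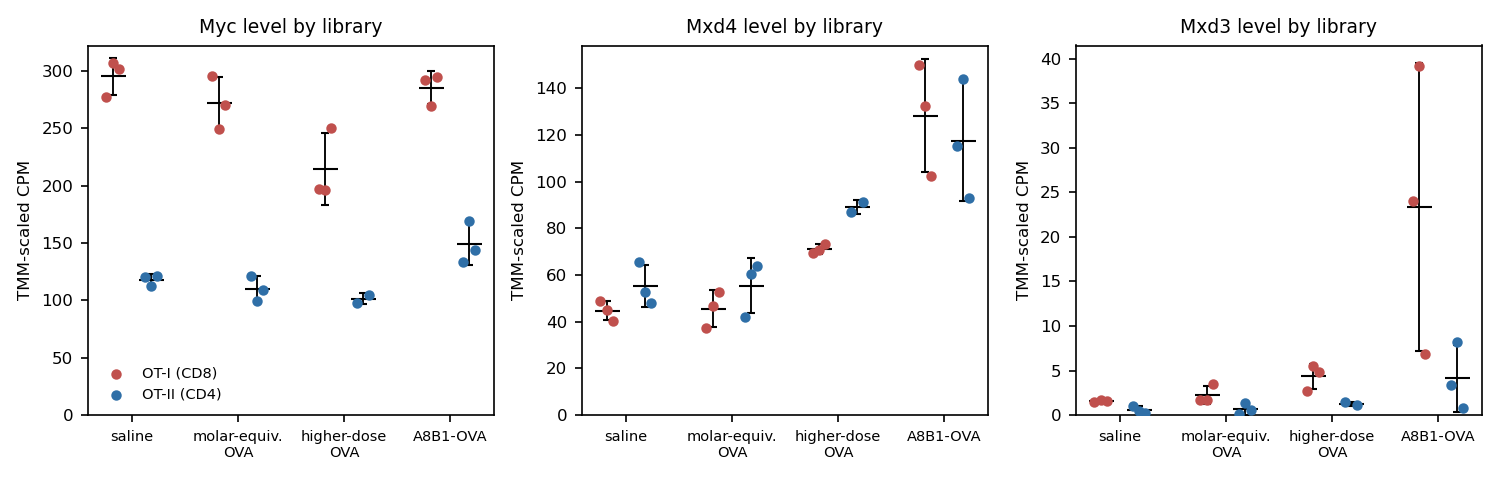
TMM-scaled CPM of Myc and of the Myc antagonists Mxd4 and Mxd3 in each library by treatment, with OT-I in red and OT-II in blue; bars show the group mean ± SD. All OT-I libraries lie above all OT-II libraries for Myc, and the A8B1-OVA libraries lie above the saline libraries for Mxd4 in both cell types.

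Among the nucleolar phosphoproteins, Ncl rose in OT-II cells with A8B1-OVA and Gnl3 fell in OT-I cells. Ncl encodes nucleolin, which binds ribosomal RNA precursors (chr1:86344719-86359400, minus strand). It stood at 432, 409.8 and 454 CPM after saline and 606, 719 and 715 CPM after A8B1-OVA in OT-II. In OT-I it stood at 676, 676 and 724 CPM (saline) and 848, 1009 and 895 CPM (A8B1-OVA), and at 541, 575 and 509 CPM after higher-dose OVA. In each cell type all A8B1-OVA libraries lay above all libraries of the other 3 treatments, and in OT-I all higher-dose libraries lay below all others. The log2 fold change from saline was 0.67 ± 0.11 in OT-II (adjusted p = 0.0027) and 0.40 ± 0.12 in OT-I (adjusted p = 0.0517, not passed), and the value from higher-dose OVA in OT-I was 0.73 ± 0.12 (adjusted p = 0.0122; lost without A8B1-OVA replicate 2, 0.0556, or higher-dose replicate 3, 0.0624).

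Gnl3 encodes nucleostemin, a nucleolar GTPase (chr14:31012433-31019152, minus strand). In OT-I it stood at 94.8, 91.8 and 101 CPM after saline, 95.9, 88.00 and 102 CPM after molar-equivalent OVA, 70.2, 58.4 and 61.6 CPM after higher-dose OVA and 69.9, 68.6 and 64.01 CPM after A8B1-OVA. The higher-dose and A8B1-OVA libraries overlapped each other and lay below all saline and molar-equivalent libraries. Against saline, Gnl3 fell with A8B1-OVA (log2 fold change -0.52 ± 0.11, adjusted p = 0.0103; 0.0576 without saline replicate 3) and with higher-dose OVA (-0.57 ± 0.11, adjusted p = 0.0172; 0.0749, 0.0684 and 0.1 without saline replicates 1, 2 and 3, and 0.0941 and 0.0742 without higher-dose replicates 2 and 3). In OT-II it stood at 45.2, 50.9 and 55.1 CPM after saline and 54.2, 55.3 and 57.03 CPM after A8B1-OVA, groups that overlapped, with 0.15 ± 0.12 (adjusted p = 0.515). Against molar-equivalent OVA in OT-I, Gnl3 was also lower with A8B1-OVA (-0.50 ± 0.11, adjusted p = 0.0124; 0.054 without A8B1-OVA replicate 2). In the edgeR fits of all libraries, the calls of other members in comparisons of A8B1-OVA with another treatment were in the higher direction.

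Nolc1, a chaperone of snoRNPs, stood at 159, 160.5 and 164 CPM after saline, 123, 132 and 121 CPM after higher-dose OVA and 216, 209 and 183 CPM after A8B1-OVA in OT-I. Npm1, the histone and ribosome chaperone nucleophosmin, stood at 453, 533 and 441 CPM after saline, 346, 375 and 293 CPM after higher-dose OVA and 653, 854 and 511 CPM after A8B1-OVA in OT-I. Its OT-II levels were 275, 261 and 271 CPM after saline and 329.7, 421 and 368 CPM after A8B1-OVA. For both genes higher-dose OVA lay lowest in OT-I without overlap; for Npm1, A8B1-OVA replicate 3 lay inside the saline range there. Against saline, A8B1-OVA gave Nolc1 0.32 ± 0.12 in OT-I (adjusted p = 0.0986) and 0.22 ± 0.09 in OT-II (adjusted p = 0.187), and gave Npm1 0.49 ± 0.13 in OT-II (adjusted p = 0.0451, lost without saline replicate 1, 2 or 3 or A8B1-OVA replicate 2 or 3, up to 0.14). Mybbp1a, a nucleolar regulator of transcription, had 0.30 in OT-I and 0.27 in OT-II, neither passed, and 0.80 ± 0.16 against higher-dose OVA in OT-I (adjusted p = 0.027). That Mybbp1a call was kept in 1 of 6 fits that left out a library (adjusted p up to 0.145). Of the 31-base words of the Npm1 transcripts, 35.9% also occur in other annotated genes, most of them outside the deposited table, so part of its counts is uncertain.

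**Figure D3:**
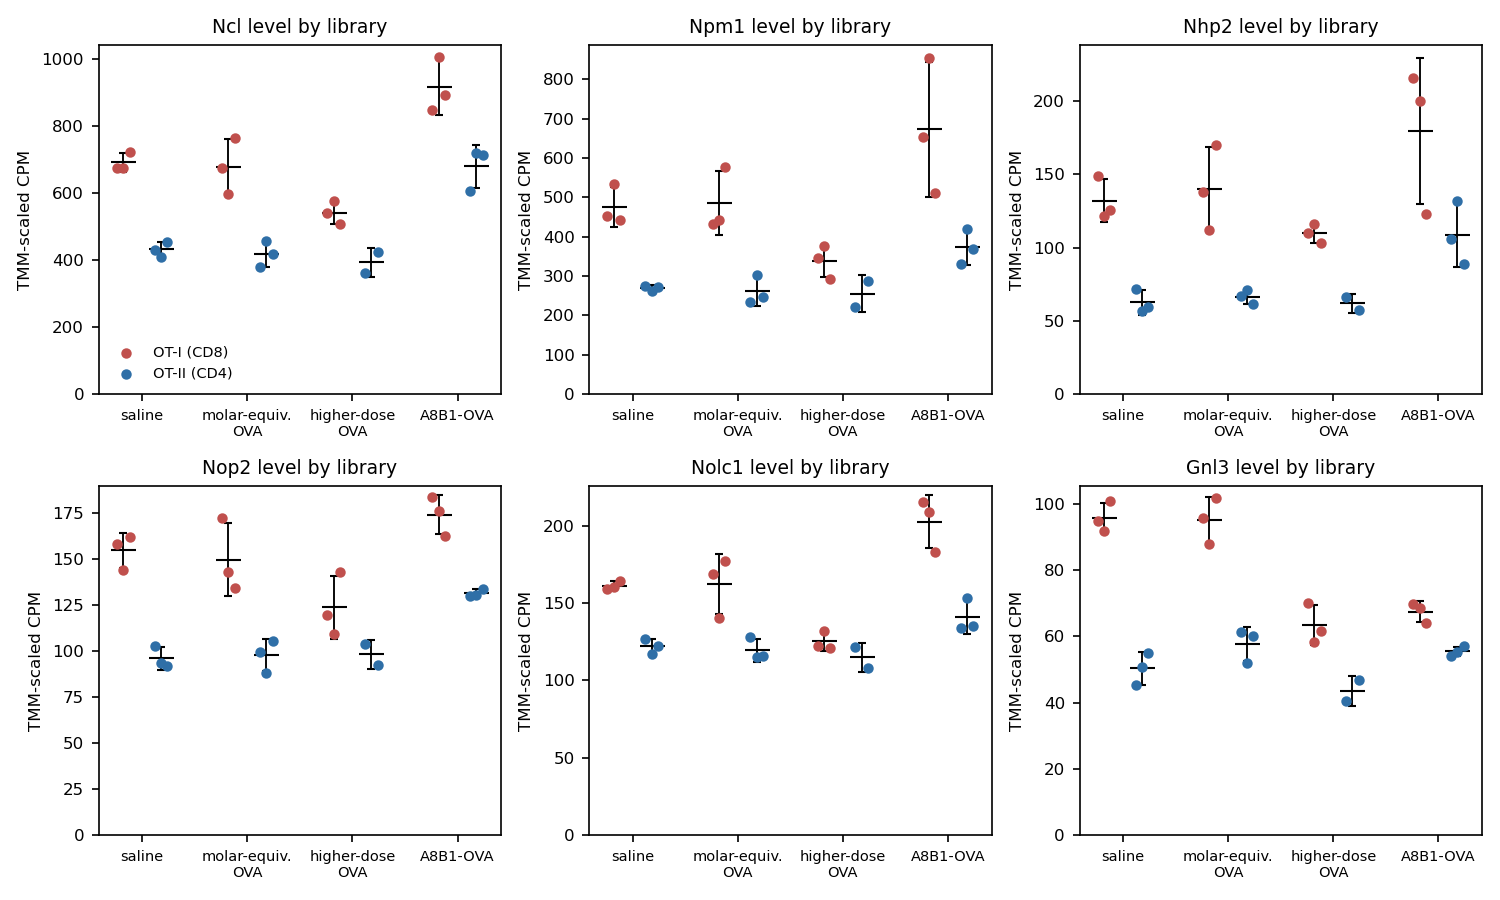
TMM-scaled CPM of Ncl, Npm1, Nhp2, Nop2, Nolc1 and Gnl3 in each library by treatment, with OT-I in red and OT-II in blue; bars show the group mean ± SD. Ncl has its highest libraries after A8B1-OVA in both cell types, and Gnl3 has its lowest OT-I libraries after higher-dose OVA and A8B1-OVA.

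The box H/ACA snoRNP turns uridines of ribosomal RNA into pseudouridine. After saline its 4 members had a median log2 difference of 0.99 in favour of OT-I, with 3 of 4 called. Nhp2, a core protein of the particle (chr11:51619735-51623714, plus strand), stood at 71.9, 56.5 and 59.1 CPM after saline and 106, 132 and 88.8 CPM after A8B1-OVA in OT-II, and at 149, 121 and 126 CPM (saline) and 216, 200.05 and 123 CPM (A8B1-OVA) in OT-I. In OT-II the groups did not overlap and Nhp2 rose by 0.81 ± 0.14 (adjusted p = 0.0052); in OT-I A8B1-OVA replicate 3 lay inside the saline range and the value was 0.43 ± 0.20 (adjusted p = 0.186).

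Dkc1 encodes dyskerin, the pseudouridine synthase. It stood at 93.9, 99.5 and 90.9 CPM after saline and 118, 131 and 149.9 CPM after A8B1-OVA in OT-II, and at 191, 175 and 196 CPM (saline) and 169, 167 and 191 CPM (A8B1-OVA) in OT-I. The groups were apart in OT-II (0.50 ± 0.11, adjusted p = 0.017; 0.0732 without saline replicate 3) and overlapped in OT-I (-0.10 ± 0.13, adjusted p = 0.669). Gar1, a further core protein, stood at 30.9, 21.99 and 29.2 CPM (saline) and 36.4, 50.4 and 33.8 CPM (A8B1-OVA) in OT-II and at 55.3, 54.8 and 53.6 CPM (saline) and 80.9, 68.4 and 53.3 CPM (A8B1-OVA) in OT-I. Its fold changes from saline were 0.57 ± 0.17 in OT-II (adjusted p = 0.0647) and 0.30 ± 0.18 in OT-I (adjusted p = 0.329), neither passed, though every OT-II A8B1-OVA library lay above every saline library. Nop10, the smallest core protein, had 0.12 and 0.11, neither passed.

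The box C/D snoRNP methylates ribosomal RNA, with Fbl (fibrillarin) as its enzyme, Nop56 and Nop58 as its scaffold and Rrp9 in the particle that starts small-subunit processing. Fbl stood at 187, 169 and 156 CPM after saline, 254, 245 and 159 CPM after A8B1-OVA and 122, 128 and 129 CPM after higher-dose OVA in OT-I. Nop56 stood at 402, 338 and 415 CPM after saline, 302, 293 and 307 CPM after A8B1-OVA and 295, 272 and 291 CPM after higher-dose OVA. Rrp9 stood at 133, 116 and 122 CPM after saline, 124, 97.7 and 91.8 CPM after A8B1-OVA and 94.4, 80.9 and 85.2 CPM after higher-dose OVA. For these genes every higher-dose library lay below every saline library, and after A8B1-OVA Nop56 lay wholly below saline while 2 Fbl libraries lay above all saline libraries and replicate 3 among them. Against saline, A8B1-OVA in OT-I gave 0.35 ± 0.17 for Fbl, -0.37 ± 0.15 for Nop56, -0.26 ± 0.14 for Rrp9 and -0.01 for Nop58, and in OT-II 0.44, 0.03, 0.00 and 0.44, none of them passed. Fbl values are uncertain, since 75.4% of the 31-base words of its annotated transcripts are shared with transcripts annotated to Tulp4, which is also in the table; for Nop56, 32.8% are shared with genes outside the table.

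Of the RNA polymerase I class, Polr1b and Polr1e were higher in OT-I than in OT-II after saline (0.72 ± 0.21 and 0.62 ± 0.10), and no member was called in any comparison within a cell type. Polr1a and Polr1b encode the 2 largest subunits of the enzyme, Polr1c a subunit shared with RNA polymerase III, Polr1e a further subunit, and Tcof1 a nucleolar protein (treacle) needed for ribosomal RNA transcription. In OT-I, Polr1c stood at 51.2, 43.4 and 48.5 CPM after saline and 70.9, 64.3 and 44.6 CPM after A8B1-OVA. Tcof1 stood at 282, 267 and 311 CPM (saline) and 337, 336 and 299 CPM (A8B1-OVA), and Polr1a at 74.4, 85.7 and 77.1 CPM (saline) and 65.3, 79.7 and 77.8 CPM (A8B1-OVA). All 3 pairs of groups overlapped. The fold changes from saline with A8B1-OVA in OT-I and OT-II were -0.10 and 0.08 for Polr1a, 0.11 and 0.33 for Polr1b, 0.32 and 0.25 for Polr1c, 0.06 and 0.27 for Polr1e, and 0.17 and 0.05 for Tcof1. The Polr1b call was lost without OT-I saline replicate 2 (adjusted p = 0.0586) or 3 (0.0861) and without OT-II saline replicate 2 (0.0801) or 3 (0.0883). Tcof1 and the large-subunit gene Wdr12 were the members with a negative difference between OT-I and OT-II after saline (-0.12 and -0.09, neither passed).

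Among the factors of the small subunit, Rrp12, which acts in the maturation and export of pre-ribosomes, was higher in OT-I than in OT-II after saline (1.03 ± 0.24), as was Wdr43 (0.68 ± 0.15), a protein of the early processing complex. Rrp12 stood at 43.4, 33.3 and 34.7 CPM after saline, 33.4, 28.9 and 39.7 CPM after molar-equivalent OVA and 51.2, 60.2 and 55.96 CPM after A8B1-OVA in OT-II, and at 79.3, 79.2 and 68.8 CPM (saline) and 77.8, 83.8 and 92.2 CPM (A8B1-OVA) in OT-I. In OT-II all A8B1-OVA libraries lay above the saline and molar-equivalent libraries. After higher-dose OVA Rrp12 stood at 52.9 and 33.1 CPM there, with replicate 2 above A8B1-OVA replicate 1. With A8B1-OVA it was called against molar-equivalent OVA (0.73 ± 0.18, adjusted p = 0.0296) and not against saline (0.60 ± 0.18, adjusted p = 0.0593). The call was lost without A8B1-OVA replicate 1 (0.054), 2 (0.0972) or 3 (0.0578) or molar-equivalent replicate 1 (0.104) or 2 (0.103). Nop14, a further processing factor, stood at 58.9, 61.99 and 64.1 CPM after saline and 50.7, 48.9 and 49.5 CPM after A8B1-OVA in OT-I, and Wdr43 at 222, 238 and 245 CPM (saline) and 174, 183 and 226 CPM (A8B1-OVA). The Nop14 groups did not overlap and the Wdr43 groups did. Fold changes from saline with A8B1-OVA in OT-I and OT-II were -0.32 and -0.21 for Nop14, -0.28 and 0.08 for Wdr43, 0.04 and 0.01 for Wdr75, which works with Wdr43, and 0.15 for Rrp12 in OT-I, none of them passed.

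In the large-subunit class, Nop2 and Nop16 rose in OT-II cells with A8B1-OVA. Nop2, which methylates ribosomal RNA and whose promoter window is printed above (chr6:125131909-125144753, plus strand), stood at 103, 93.2 and 91.6 CPM after saline and 129.7, 130.1 and 134 CPM after A8B1-OVA, and Nop16, an assembly factor, at 53.8, 42.3 and 40.7 CPM (saline) and 65.7, 75.7 and 61.01 CPM (A8B1-OVA). Neither gene's groups overlapped, and the log2 fold changes were 0.47 ± 0.09 (adjusted p = 0.0113; 0.0566 without saline replicate 3) and 0.58 ± 0.13 (adjusted p = 0.0155; 0.0601, 0.0602 and 0.0732 without A8B1-OVA replicate 2, saline replicate 2 and saline replicate 3). In OT-I the same comparison gave 0.16 and 0.23, neither passed.

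Nle1, which helps release assembly factors from the large subunit, stood at 30.9, 29.2 and 27.9 CPM after saline and 23.05, 22.1 and 23.96 CPM after A8B1-OVA in OT-I. Pes1, which forms a complex with Bop1 and Wdr12 that is needed for large-subunit RNA processing, stood at 143, 134 and 143 CPM (saline) and 166, 167 and 166 CPM (A8B1-OVA). Wdr74 stood at 83.9, 71.97 and 78.4 CPM (saline) and 75.02, 67.2 and 59.5 CPM (A8B1-OVA). Nle1 after A8B1-OVA lay wholly below saline and Pes1 wholly above it, while Wdr74 overlapped. Fold changes from saline with A8B1-OVA in OT-I and OT-II were -0.36 and -0.19 for Nle1, 0.24 and 0.31 for Pes1, 0.04 and 0.16 for Bop1, 0.08 and -0.19 for Wdr12, and -0.23 and 0.04 for Wdr74. The assembly factors Rrs1, Ppan, Noc2l and Noc3l had -0.07 and 0.19, 0.10 and 0.27, -0.07 and 0.10, and 0.10 and 0.31 in the same order, none of these 9 genes past the test. Parts of the Pes1 transcripts (36.5% of 31-base words) and of the Noc2l transcripts (19.9%) are shared with other annotated genes.

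The RNA helicase Ddx21, which couples RNA polymerase I output to processing, stood at 112, 120.1 and 118 CPM after saline and 132, 145 and 137 CPM after A8B1-OVA in OT-I. Ddx18, a helicase of large-subunit assembly, stood at 105, 97.4 and 97.7 CPM (saline) and 114, 88.1 and 81.02 CPM (A8B1-OVA), with 72.0% of its 31-base words shared with genes outside the table. The Ddx21 groups did not overlap and the Ddx18 groups did. Against saline, A8B1-OVA gave Ddx21 0.23 in OT-I and 0.28 in OT-II and Ddx18 -0.09 and 0.00, none passed; between the cell types after saline Ddx21 was called higher in OT-I (0.65 ± 0.13, adjusted p = 0.00112).

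Across all treatments, the lowest OT-I mean fell in the same group for most members, and the other extremes varied more. In OT-I, higher-dose OVA had the lowest mean for 34 of 36 members (all genes 23.9%), with Noc3l and Tcof1, lowest after molar-equivalent OVA, as the exceptions. The highest OT-I mean was that of A8B1-OVA for 20 members (all genes 33.8%), of saline for 8 (22.3%) and of molar-equivalent OVA for 8 (25.1%). In OT-II, A8B1-OVA had the highest mean for 24 members (all genes 30.4%) and higher-dose OVA the lowest for 20 (all genes 21.9%). All 3 higher-dose libraries lay below every other OT-I library for 10 members (Fbl, Ncl, Nle1, Nolc1, Nop58, Npm1, Pes1, Ppan, Rrs1 and Wdr75; all genes 1.05%). All 3 A8B1-OVA libraries lay above every other OT-II library for 9 members (Gar1, Myc, Ncl, Nhp2, Nolc1, Nop16, Nop2, Npm1 and Ppan; all genes 5.34%), and above every other OT-I library for 3 (Mybbp1a, Ncl and Nolc1; all genes 5.40%). These counts were not tested.

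Summed over the 36 members, the level was 5979.8, 5888 and 6055 CPM in OT-I after saline, 6230.4, 5426 and 6025 CPM after molar-equivalent OVA, 4574, 4638 and 4776 CPM after higher-dose OVA and 6724, 6956 and 6032 CPM after A8B1-OVA. In OT-II the sums were 4185, 3820.5 and 4158 CPM after saline, 4156, 4003 and 3982 CPM after molar-equivalent OVA, 3859 and 3745 CPM after higher-dose OVA and 4571, 5146 and 4894 CPM after A8B1-OVA. The higher-dose libraries were lowest in OT-I and the A8B1-OVA libraries highest in OT-II, both without overlap. In these bulk libraries fewer cells that hold a transcript and less of it per cell cannot be told apart. The OT-I higher-dose libraries were shallow (33.5 to 34.3 M counts against 53.9 to 68.2 M after saline). Molar-equivalent replicates 2 and 3, at 26.6 and 35.6 M, had sums of 5426 and 6025 CPM. Within the higher-dose group, replicate 1 with its CD4 markers had 4574 CPM and replicates 2 and 3 had 4638 and 4776 CPM. All 3 higher-dose libraries were shallow, so depth cannot be separated from treatment in that group, and its part in the sums was not tested.

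**Figure D4:**
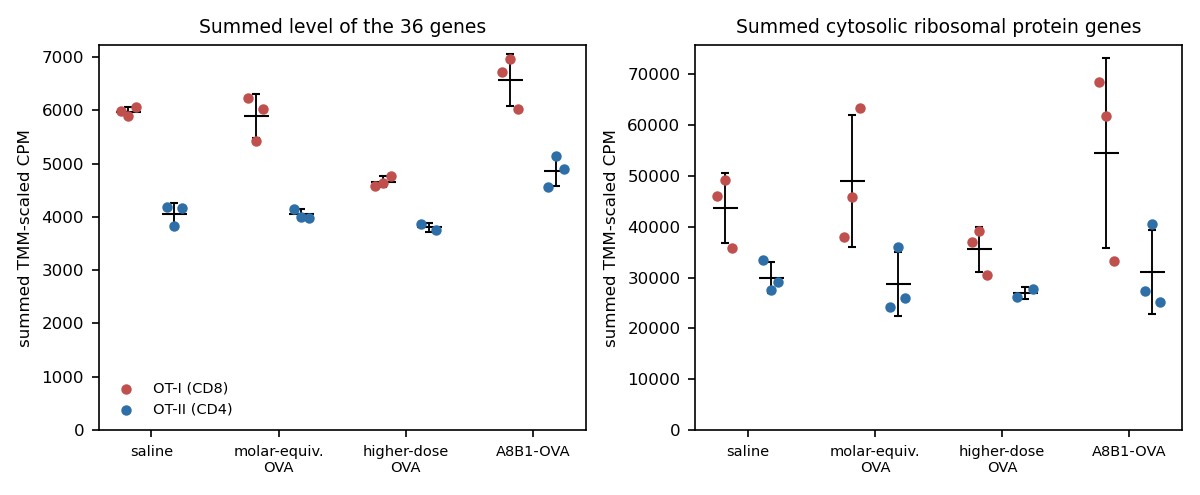
Summed TMM-scaled CPM of the 36 genes (left) and of 76 cytosolic ribosomal protein genes (right) in each library by treatment, with OT-I in red and OT-II in blue; bars show the group mean ± SD. On the left the 3 OT-I higher-dose libraries lie at 4574 to 4776 CPM, below all other OT-I libraries; on the right the OT-I A8B1-OVA libraries range from 33298 to 68414 CPM.

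The cytosolic ribosomal protein genes, whose products fill the particles that the members build, showed 0 of 76 called by edgeR in each comparison within a cell type, with 8 at an unadjusted p under 0.05 for A8B1-OVA against saline in OT-I, 47 for A8B1-OVA against higher-dose OVA there and 2 for A8B1-OVA against saline in OT-II. The other comparisons had 0 to 6 at that unadjusted p. After saline 14 of 76 were higher in OT-I than in OT-II and 0 lower (all genes 8.36% and 7.11%). Their summed level in OT-I after A8B1-OVA was 68414, 61760.3 and 33298 CPM. It was 46061, 49111 and 35886 CPM after saline and 36969, 39152 and 30477 CPM after higher-dose OVA. After molar-equivalent OVA it was 37936.5, 45782 and 63342 CPM. A8B1-OVA replicates 1 and 2 and molar-equivalent replicate 3 lay above every saline and higher-dose library, and A8B1-OVA replicate 3 lay within their range. The 6 members with the shortest transcripts were Nhp2, Nop10, Fbl, Wdr74, Gar1 and Polr1c (1042 to 1314 bases). They summed to 998, 881 and 592 CPM after A8B1-OVA and to 674, 644 and 897 CPM after molar-equivalent OVA. Their part in the spread of these groups was not tested.

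Of a wider list of 99 other ribosome biogenesis genes, few were called with A8B1-OVA, at shares near or below those of all genes. In OT-I 4 of 99 were higher against saline (all genes 7.07%), among them Urb2 (0.89 ± 0.25), Nop9 (0.54 ± 0.13) and Senp3 (0.51 ± 0.15), and 4 lower (all genes 4.43%), among them Taf1a (-0.70 ± 0.17), a subunit of the RNA polymerase I initiation factor, Mdn1 (-0.64 ± 0.17), the giant ATPase of large-subunit assembly, and Mphosph10 (-0.49 ± 0.12). The list's median was 0.00. In OT-II the same comparison had 4 higher (all genes 4.40%), among them Rrp15 (0.55 ± 0.12), Noc4l (0.52 ± 0.12) and Ruvbl1 (0.49 ± 0.11), and 0 lower, with a median of 0.14. Higher-dose OVA against saline in OT-I gave 0 called (16 at an unadjusted p under 0.05) and a median of -0.13, with 78 of 99 negative. Set against the higher-dose libraries, A8B1-OVA in OT-I gave 1 called (all genes 1.63%), Tbl3, at 0.58 ± 0.11. Between the cell types after saline, 28 were higher in OT-I and 0 lower (all genes 8.36% and 7.11%), led by Rrp15 (1.15 ± 0.13), Tsr1 (0.90 ± 0.13) and Rcl1 (0.88 ± 0.13). These calls were not recomputed under the alternatives.

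Ribosome biogenesis genes often carry genes for small nucleolar RNAs, which guide the modification of ribosomal RNA, inside their own bodies. In the GENCODE M21 annotation of GRCm38, 7 of the 36 members held 21 such genes on the same strand (Nop56 held 5, Nop58 4, Ncl, Gnl3 and Wdr43 3 each, Ppan 2 and Dkc1 1), a share of 19.4% against 1.62% of 15218 tested genes. After saline 6 of these 7 hosts and 17 of the 29 other members were called higher in OT-I than in OT-II (all genes 8.36%), with a median of 0.68 against 0.48 for the other members. With A8B1-OVA against saline the hosts' median was -0.10 in OT-I and 0.27 in OT-II, against 0.11 and 0.25 for the other members, and no test of hosts against the rest was made.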

How the data were processed

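The data are RNA-seq libraries of sorted, transferred T cells. Reads were converted with bcl2fastq and quantified with kallisto 0.46.1 on GRCm38, per the submitters' processing notes; no source used here gives the annotation release or strand setting. The deposited values are estimated counts, whole numbers for 21900 protein-coding genes, summing to 26.6 to 73.5 M per library. Groups came from the sample titles.

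Counts were tested with edgeR 4.0.16 (R 4.3.3, limma 3.58.1) by its quasi-likelihood test after TMM scaling (factors 0.896 to 1.09) and filterByExpr (minimum count 10, minimum total 15). OT-I (14080 genes) and OT-II (14757 genes) were fitted separately over all treatments, and jointly (15235 genes) for comparisons between them. P-values were adjusted by Benjamini-Hochberg over all genes tested, with 0.05 as the threshold, and SE is the absolute log2 fold change over the square root of F. CPM levels are counts normalised to the TMM-scaled library size and are not divided by transcript length, so they were not compared between genes. The procedure was tested on simulated data.

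Alternatives were DESeq2 1.42.0, its size factors, plain totals, no filter, a fit of the compared groups alone, a replicate block and leaving out each library; leaving out the 5 libraries with raised markers was chosen after seeing the data. The members, gene lists and marker lists were chosen with earlier results of these data known. Per-library values are given for Myc and, in each class, for at most 3 members, those of lowest adjusted p in the OT-I comparison of A8B1-OVA with saline, plus called members with the largest and smallest folds and members called in the opposite direction. For the wider list and the Myc network up to 3 called genes in each direction are named. Shared 31-base words were counted in GENCODE M21 transcripts.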

Additional observations from a re-analysis of the deposited data

How the results depend on the processing

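With DESeq2 in place of edgeR, 5 members were called for A8B1-OVA against saline in OT-I (3 higher, 2 lower, 2430 of all genes). Against molar-equivalent OVA 4 were called (3 higher, 1 lower, 2465 of all genes), and against higher-dose OVA 16, all higher (1180 of all genes). Higher-dose OVA in OT-I had 8 lower against saline (720 of all genes) and 6 lower against molar-equivalent OVA (584). In OT-II the members called by DESeq2 numbered 10, 14 and 12 for A8B1-OVA against saline, molar-equivalent and higher-dose OVA. Of the 14, 13 were higher and 1 lower, and the others were higher. Of all genes, DESeq2 called 1892, 1718 and 698 in these comparisons. For the difference of the A8B1-OVA responses it called 2 members (253 of all genes). DESeq2 also called Myc in OT-I for A8B1-OVA against higher-dose OVA (adjusted p = 0.0223) beside the Myc calls given above. DESeq2's size factors in edgeR gave 2 members for A8B1-OVA against saline in OT-I (1612 of all genes). Plain totals gave 1 for A8B1-OVA against molar-equivalent OVA (1498 of all genes) and 2 for higher-dose OVA against saline (322) in OT-I. They gave 1 for the difference of the A8B1-OVA responses (91 of all genes). For this difference they moved the median of all genes from 0.02 to -0.10 and that of the members from -0.17 to -0.28. Without a filter 1 member was called in OT-I for A8B1-OVA against its molar-equivalent dose of OVA (1392 of all genes). A fit of the compared groups alone gave 0 (A8B1-OVA against molar-equivalent OVA), 10 (higher-dose OVA against saline) and 0 (higher-dose against molar-equivalent OVA) in OT-I. It gave 5 and 1 for A8B1-OVA against molar-equivalent and higher-dose OVA in OT-II. Of all genes, 575, 583, 2, 768 and 90 were called in these fits, in the same order.

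No sign of pairing by replicate number was seen within a cell type, though the check was weak. For OT-I, correlations between the deviations of same-numbered libraries ran from -0.347 to 0.157 (2 of 18 pairs over 0.1). Differently numbered OT-I libraries ran from -0.288 to 0.325 (6 of 36). The OT-II ranges were -0.144 to 0.0634 (0 of 15) and -0.191 to 0.202 (3 of 30). Deviations within a small group cancel out, which ties these correlations together, so they cannot decide whether the samples were paired. Pairing of OT-I with OT-II libraries was not examined. With a replicate block, 1 member was called for A8B1-OVA against molar-equivalent OVA and 0 for higher-dose against molar-equivalent OVA in OT-I. In OT-II it gave 5 and 1 for A8B1-OVA against molar-equivalent and higher-dose OVA. Of all genes, 1392, 116, 747 and 44 were called with the block, in the same order.

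In OT-I, leaving out single libraries gave 0 to 7 members for A8B1-OVA against saline (674 to 2569 of all genes). It gave 0 to 7 members against molar-equivalent OVA (575 to 2181 of all genes) and 0 to 13 against higher-dose OVA (38 to 1487). For higher-dose OVA against saline and against molar-equivalent OVA it gave 0 to 1 members (73 to 303 and 13 to 153 of all genes). In OT-II the ranges were 2 to 7, 3 to 7 and 0 to 4 for A8B1-OVA against saline, molar-equivalent and higher-dose OVA. Without the libraries with raised markers the counts were 1 (A8B1-OVA against molar-equivalent OVA), 0 (against higher-dose OVA), 0 (higher-dose OVA against saline) and 0 (higher-dose against molar-equivalent OVA) in OT-I. They were 5 and 3 for A8B1-OVA against molar-equivalent and higher-dose OVA in OT-II. Of all genes, 1348, 62, 128, 67, 674 and 122 were called without these libraries, in the same order. The other counts of members stayed within 1.5 times the reported ones in these alternatives. The values of Myc, of the genes already called in a comparison and of the members' medians were recomputed too, so that of these single genes Myc alone could gain a call; members that were not called before can gain one in the counts above. Of these values 186 lost the call, 3 gained it (Myc under DESeq2) and 1 value of a single gene changed sign. That was Myc for A8B1-OVA against saline in OT-I, at 0.00304 (adjusted p = 0.994) without A8B1-OVA replicate 2. The other 1018 were counted as unchanged, but some medians near 0 among them changed sign. The OT-I median for molar-equivalent OVA against saline went from -0.01 to 0.05 without molar-equivalent OVA replicate 2. The cause of these changes was not tested. Every member had at least 668 counts in every library, with 2 or 3 pools a group.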
